A study of Homo sapiens with 6 samples.

Results

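The heat shock, chaperonin and endoplasmic reticulum (ER) stress genes are a named list of 56 genes that hold the main protein folding systems of the cytosol, the mitochondria and the ER, with the factors that control them. All 56 were found by symbol among the 34834 genes to which a quantified transcript could be assigned, and 49 passed the filter on low counts that 11814 genes passed in all. Its members comprise 25 cytosolic chaperones and cochaperones, 4 mitochondrial chaperones, 13 ER chaperones and folding enzymes, 4 genes of ER-associated degradation, 9 regulators, and HSPB11, a ciliary transport protein that carries a heat shock name. The cells were SKOV3, an established human ovarian cancer cell line, transfected with a pool of siRNAs (SMARTpool) against the long non-coding RNA DNM3OS at 50 nM (3 samples, here KD1 to KD3). The controls were SKOV3 cells that received a pool of non-targeting siRNAs at the same concentration (3 samples, NT1 to NT3), so that siRNA and the lipid transfection reagent were common to both groups. RNA was taken 48 h after transfection. Nothing in the sample descriptions states that the 3 samples of a group were separate cultures, and p-values then measure only the spread between these samples.

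Chaperones bind unfolded or partly folded proteins and release them in cycles of ATP hydrolysis. In the cytosol HSP70 and HSP90 work with DNAJ, BAG and other cofactors, and the ring-shaped CCT chaperonin folds actin and tubulin. HSPD1 and HSPE1 form the chaperonin of the mitochondrial matrix, and in the ER the HSP70 HSPA5 (BiP), lectin chaperones and disulphide isomerases fold secreted and membrane proteins. Protein damage in the cytosol activates HSF1, which binds heat shock elements in promoters. Unfolded protein in the ER activates the sensors ERN1 (IRE1), EIF2AK3 (PERK) and ATF6. Their downstream factors include XBP1, ATF4 and DDIT3 (CHOP), of which XBP1 acts in part through the ER stress element.

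Elements of this kind lie near the start sites of some members, and those of 7 members are shown as examples because the list holds genes of both responses. RefSeq start-site windows (250 bases before to 50 after the start, GRCh38.p14) were found for 51 of the 56 genes. A heat shock element of 3 units (TTC, any 2 bases, GAA, any 2 bases, TTC, on either strand) was present for 6 of the 51 members, that is 11.8%, against 0.608% of the 27305 genes with a window. The 6 were HSP90AA1, HSP90AB1, HSPA8, DNAJA1 and DNAJB6 of the cytosol and HSPD1 of the mitochondria. The ER stress element (CCAAT, any 9 bases, CCACG, on either strand) was present for 6 members, of which 5 were ER genes (HSP90B1, HSPA5, CALR, CANX and PDIA6) and 1 was the regulator XBP1, against 0.0916% of all genes with a window. The related shorter element (ATTGG, any 1 base, CCACG, on either strand) was found for HYOU1 and HERPUD1 (0.0696% of all genes), and the amino acid response element ATTGCATCA on either strand for 0 of the 51 members and 0.293% of all genes. The longer ER stress element was found in 0 of 23 cytosolic windows and the heat shock element in 0 of 12 ER windows. A match describes letters in these windows only.

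In the lines that follow, capitals mark the matched element and the strand is that of the gene. HSP90AA1 (chr14:102087100-102087152, minus strand) and HSP90AB1 (chr6:44247758-44247863, plus strand) hold heat shock elements that lie between 75 and 165 bases upstream of the RefSeq start, inside the gene span but outside its exons in GENCODE release 44.
HSP90AA1: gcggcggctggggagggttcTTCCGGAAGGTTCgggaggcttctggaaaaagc
HSP90AB1: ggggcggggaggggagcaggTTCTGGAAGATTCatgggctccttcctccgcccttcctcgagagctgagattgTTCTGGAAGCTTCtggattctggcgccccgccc
The ER stress elements of HSPA5 (chr9:125241371-125241429, minus strand), CALR (chr19:12938364-12938422, plus strand), PDIA6 (chr2:10812833-10812891, minus strand) and XBP1 (chr22:28800583-28800641, minus strand) lie upstream of the RefSeq start, between 33 and 225 bases from it, and the CALR element is in the opposite orientation to the other 3. The CALR stretch overlaps no annotated gene, and 12, 7 and 15 bases of the HSPA5, PDIA6 and XBP1 stretches lie in exons of the gene itself.
HSPA5: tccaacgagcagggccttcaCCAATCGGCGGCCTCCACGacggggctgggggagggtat
CALR: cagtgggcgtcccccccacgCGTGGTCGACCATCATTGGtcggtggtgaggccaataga
PDIA6: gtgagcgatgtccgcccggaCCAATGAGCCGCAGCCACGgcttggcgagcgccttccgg
XBP1: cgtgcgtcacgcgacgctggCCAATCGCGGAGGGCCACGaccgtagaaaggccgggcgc
HYOU1 (chr11:119057254-119057410, minus strand) holds the shorter element at 2 places, both upstream of the annotated gene.
HYOU1: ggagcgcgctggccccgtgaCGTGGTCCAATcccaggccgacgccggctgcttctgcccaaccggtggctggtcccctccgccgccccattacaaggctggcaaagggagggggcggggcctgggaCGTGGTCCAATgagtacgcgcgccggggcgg

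The libraries were shallow, with between 1523156 and 1868461 estimated counts on annotated genes, so that 3 counts corresponded to between 1.606 and 1.97 CPM, a count scaled to library size, here before TMM normalization. CPM below are after TMM, which scales the libraries so that the bulk of genes shows no difference. All 7 epithelial and ovarian markers (KRT8, KRT18, KRT19, EPCAM, CDH1, ERBB2 and PAX8) had counts in every library, with a summed level of 1003 to 2291 CPM in knockdown and 1151 to 1763 CPM in control samples. KRT8 made up most of this sum, at 783 to 1801 CPM in knockdown and 782 to 1177 CPM in control samples. EPCAM, CDH1 and PAX8 had means of 13.9, 23.3 and 18.9 CPM in knockdown and 14.5, 19.1 and 20.5 CPM in control samples. These lay below the means of the leukocyte marker PTPRC, 72.4 CPM in knockdown and 63.7 CPM in control samples. Of the leukocyte markers CD14 was at 0 in all 6 libraries and CD3E held at most 2 counts, while PTPRC held 91 to 148. The 4 leukocyte markers summed to 80 to 94.7 CPM in knockdown and 68.9 to 85.8 CPM in control samples, the 4 fibroblast markers to 31.6 to 39.2 and 27.3 to 39.3 CPM, and the 3 endothelial markers to 16.8 to 31.2 and 19 to 26.5 CPM. No transcript that GENCODE release 44 assigns to DNM3OS was among those quantified, so the depth of the knockdown could not be read from these values.

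No member passed the threshold of at least 2-fold with a Benjamini-Hochberg adjusted p below 0.05 in either direction (edgeR's exact test). The adjusted p was 1 for each of the 49 tested members. Over all tested genes 1 was called lower, 0.00846%, and 0% were called higher. An unadjusted p below 0.05 by edgeR's exact test was seen for 2 of the 49 tested members, against 345 of the 11814 tested genes (2.92%). Whether the members' share differs from that of all tested genes was not tested. By edgeR's exact test the 2 members were the CCT chaperonin genes CCT6A (p = 0.00685) and CCT8 (p = 0.04775). Both were lower in knockdown, as were 1.91% of all tested genes, and 0 members were higher at that level, against 1.01%. The quasi-likelihood test gave 2 members at that level and DESeq2 gave 1, and each of them called 0 genes of the whole table. With 1 sample left out, the exact test gave from 0 members at that level (without NT1) to 10 (without NT2). In 2 members, CCT6A and PDIA3, every knockdown value lay below every control value, a pattern shown by 3.56% of all tested genes, and in 0 members did every knockdown value lie above, against 4.42%. On the TPM scale both CCT6A and PDIA3 overlapped, since NT2 at 25.5 TPM lay below KD1 and KD2 for CCT6A (26.4 and 27.3), and NT2 at 29.9 TPM lay below KD3 for PDIA3 (34.9). A mean at least 2-fold lower was seen for CCT6A alone (1.48% of all tested genes) and a mean at least 2-fold higher for HSPA1B alone (0.288%), a gene at 0 counts in 1 sample of each group.

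The direction of the means was less even. The knockdown mean was lower for 41 of the 49 tested members and for 49.4% of all tested genes, and the median log2 fold change (knockdown minus control) was -0.32 for the members and 0.004 for all tested genes. By compartment, 21 of 24 cytosolic members had a lower mean in knockdown with a median log2 fold change of -0.31, 4 of 4 mitochondrial members with a median of -0.47, and 10 of 11 ER members with a median of -0.51. The 3 tested genes of ER-associated degradation had a median of -0.45. The 6 tested regulators were split, 3 with a lower and 3 with a higher mean, and had a median of -0.04. Differences between compartments were not tested, and the ranges of their members' log2 fold changes overlapped (-1.04 to 1.86 for cytosolic, -0.69 to -0.12 for mitochondrial and -0.76 to 0.10 for ER members).

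**Figure D1:**
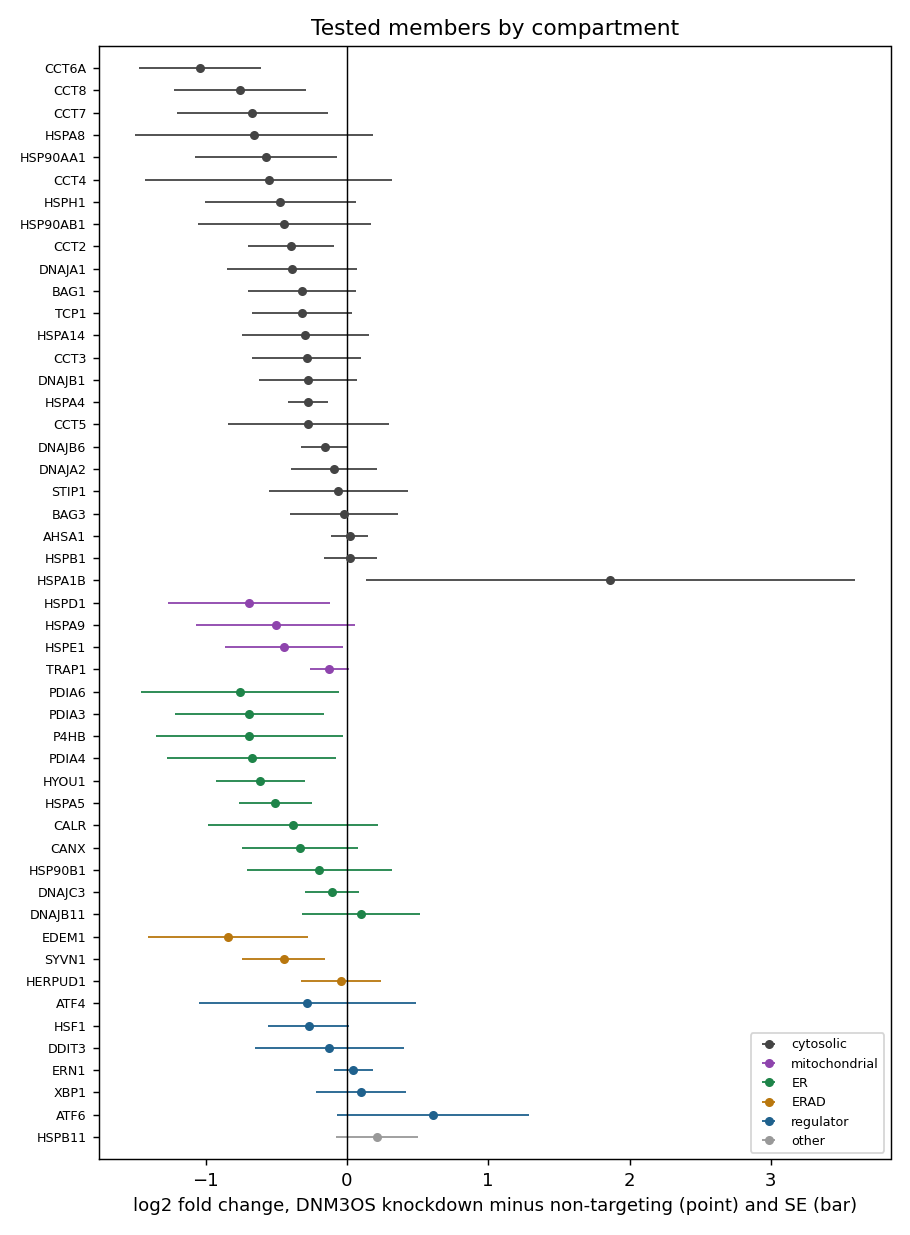
Log2 fold change of each of the 49 tested members (x axis, DNM3OS knockdown minus non-targeting), ordered within compartment, with points for the estimate and bars for 1 SE on each side. Most points lie left of 0 (41 of 49), CCT6A lies farthest left at -1.04, and HSPA1B at 1.86 has the widest bar.

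The libraries also differed within each group. Summed over the 56 members, counts made up 0.219%, 0.304% and 0.328% of all gene counts in KD1, KD2 and KD3, and 0.463%, 0.268% and 0.378% in NT1, NT2 and NT3. The groups overlapped, since NT2 lay below both KD2 and KD3. KD1 was the lowest library for 34 of the 49 tested members (69.4%, against 29.8% of all tested genes), and NT1 was the highest for 31 (63.3%, against 19.8%). Without KD1 the members' median log2 fold change was -0.09, with 33 of 50 tested members lower. Without NT1 it was -0.18 (37 of 49), and without NT2 it was -0.51 (45 of 51). Without KD1, KD2, KD3, NT1, NT2 or NT3 in turn, 0 members were called, and 19 of the 49 tested members turned sign in at least 1 of these fits.

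The fraction of gene counts held by 86 ribosomal protein genes, which are no members, was 0.232%, 0.384% and 0.397% in KD1, KD2 and KD3, and 0.543%, 0.32% and 0.524% in NT1, NT2 and NT3. It put the 6 libraries in the same order as the members' share, from KD1 through NT2, KD2, KD3 and NT3 to NT1. Its part in the members' lower means was not tested. In bulk RNA of this kind, fewer cells with a transcript and less transcript per cell cannot be told apart.

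**Figure D2:**
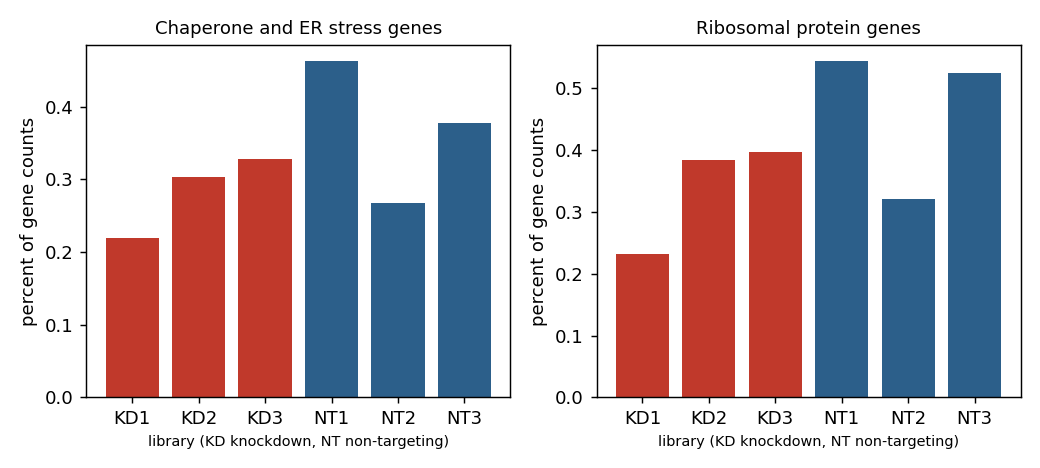
Percent of all gene counts in each library held by the 56 chaperone and ER stress genes (left) and by 86 ribosomal protein genes (right), 1 bar per library with no error bar. Both panels rise in the same order of libraries, with KD1 lowest (0.219% and 0.232%) and NT1 highest (0.463% and 0.543%).

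Levels between genes were compared in TPM, an abundance corrected for transcript length. The strand setting behind these values is not known, and TPM depends on the length of the transcript forms that took the counts. The order of genes is therefore uncertain as a measure of mRNA in the cells. TCP1 had the highest mean over the 6 samples at 406 TPM, followed by CALR at 384, HSP90AA1 at 256, HSP90B1 at 223, HSPA8 at 217 and CANX at 192. For CALR a retained-intron transcript of 667 bases took 53.5% of the counts. In CPM, CALR had means of 167 in knockdown and 217 in control samples, below HSP90AA1 at 256 and 380. HSPA5, the ER HSP70, was at 14.9 TPM, above 65.1% of the genes with any TPM. On the same scale the leukocyte marker PTPRC was at 80.5 mean TPM. The ER stress sensors were spread widely, ERN1 at 50.2 TPM against 1.81 for EIF2AK3 and 1.87 for ATF6. The 7 members below the filter were HSPA1A, HSPA13, DNAJB9, HSF2, EIF2AK3, TRIB3 and SEL1L, with at most 4.345 mean TPM.

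The CCT chaperonin has 8 different subunits per ring, and all 8 subunit genes had a lower mean in knockdown, with log2 fold changes from -1.04 to -0.27 and a median of -0.47. Without KD1 the median was -0.22, CCT3 and CCT5 were at 0.03 and 0.07, and CCT4 went from -0.55 to -0.09. Without KD3 the median was -0.73, and without NT2 it was -0.76. Their sum was 649, 769 and 888 CPM in KD1, KD2 and KD3 and 1362, 646 and 949 CPM in NT1, NT2 and NT3. The groups therefore overlapped, NT2 being the lowest of the 6. CCT6A (zeta subunit, chromosome 7) was at 11.2, 20.9 and 19.7 CPM in knockdown and 47.9, 20.95 and 35.9 CPM in control samples. NT2 and KD2 thus nearly coincided, at 32 and 31 counts, although the groups did not overlap on this scale. Its means were 17.3 ± 5.31 and 34.9 ± 13.5 CPM (SD, n = 3 each), a log2 fold change of -1.04 with SE 0.43 and an adjusted p of 1 by edgeR's exact test. CCT8 (theta subunit) was at 14.4, 31.7 and 29.5 CPM in knockdown and 52.4, 25.5 and 48.2 CPM in control samples, with NT2 below KD2 and KD3. Its log2 fold change was -0.76 (SE 0.47) and -0.45 without KD1. It is named because of its p-value, after the values were seen.

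The subunits of this one complex did not have like TPM, an order that is uncertain for the reasons given above. TCP1 (alpha subunit, chromosome 6) had 406 mean TPM, whereas CCT3 had 140, CCT2 91.1, CCT5 53.4, CCT6A 38.9, CCT8 38.0, CCT7 35.8 and CCT4 10.9. Retained-intron transcripts of 827 and 758 bases led for CCT3 (62.5% of its counts) and CCT2 (28.0%). In CPM, not corrected for length, CCT2 had means of 31.5 in knockdown and 40.9 in control samples, below CCT5 at 49.2 and 58.9. TCP1 was at 521, 500 and 607 CPM in knockdown and 994.5, 437 and 598 CPM in control samples. The 3 knockdown values lay within the range of the controls, and the log2 fold change of -0.32 (SE 0.36) became 0.06 without NT1. A single transcript of 2499 bases took 96.9% of the counts of TCP1, and 454 of its bases lie opposite exons of ACAT2, a gene on the other strand.

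Among the cytosolic HSP90 genes, HSP90AA1 (the inducible form) was at 133, 289 and 345 CPM in knockdown and 474.5, 250.1 and 415 CPM in control samples. KD1 was the lowest and NT2 lay below KD2 and KD3, so the groups overlapped. The log2 fold change was -0.57 (SE 0.51), and -0.25 without KD1. HSP90AB1, the constitutive form, had the same order of libraries, with 113, 319 and 354 CPM against 447, 219 and 401 CPM and a log2 fold change of -0.44 (SE 0.61), which was -0.07 without KD1 and -0.25 without NT1. The HSP90 cofactors STIP1, which links HSP70 to HSP90, and AHSA1, which activates its ATPase, had log2 fold changes of -0.06 and 0.02, and both turned sign when some single libraries were left out.

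HSPA8, the constitutive cytosolic HSP70 that also uncoats clathrin vesicles, had one of the widest spreads. It was at 34.4, 151 and 174 CPM in knockdown and 259, 98.9 and 207 CPM in control samples. KD1 lay far below the other 5, NT2 was the second lowest, and the log2 fold change of -0.66 carried an SE of 0.84. It was -0.20 without KD1 and -0.37 without NT1. HSPA4 and HSPH1, of the HSP110 family that exchanges nucleotide on HSP70, had log2 fold changes of -0.28 and -0.47, and HSPA14, which acts at the ribosome, had -0.30, which was 0.27 without NT1. HSPH1 was at -0.17 without KD1 and -0.18 without NT1.

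The stress-inducible HSP70 genes HSPA1A and HSPA1B lie next to each other on chromosome 6 and are nearly identical in sequence, so that their reads can be split between them. HSPA1A was at 0 counts in all 6 libraries, which allows up to 3 counts in each. HSPA1B was at 24, 0 and 48 counts in knockdown and 0, 16 and 3 counts in control samples. Each group held 1 library at 0, and the values were scattered across both. The log2 fold change of 1.86 had an SE of 1.73 and ran from 0.49 without KD3 to 3.99 without NT2. For the sum of both genes an exact permutation test over 20 assignments of the samples gave a two-sided p of 0.5 (n = 3 each), where the smallest possible is 0.1. Transcripts outside GENCODE release 44 were not searched for further copies of these genes, so their level is uncertain.

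The 6 DNAJ and BAG genes all had lower means in knockdown, with a median log2 fold change of -0.22, which was -0.06 without KD1 and -0.02 without NT1. The HSP40 cochaperone DNAJA1 had the largest difference, at 15.8, 37.1 and 29.5 CPM in knockdown and 51.8, 27.5 and 27.1 CPM in control samples. Only NT1 among the controls lay above the knockdown range, and the log2 fold change of -0.39 (SE 0.46) was -0.08 without KD1 and -0.01 without NT1. BAG1, a nucleotide exchange factor with the highest level of this group at 66.8 TPM, was at 19.1, 30.4 and 37.9 CPM against 49.6, 26.2 and 31.8 CPM. KD1 was again the lowest, and the log2 fold change of -0.32 (SE 0.38) was -0.07 without KD1 and -0.02 without NT1. DNAJB1 and BAG3, targets of HSF1 in the heat shock response, had log2 fold changes of -0.28 and -0.02, and without KD1 of -0.05 and 0.39.

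The small heat shock protein HSPB1 (HSP27) was at 18.6, 26.3 and 19 CPM in knockdown and 23.4, 17.7 and 21.2 CPM in control samples. The groups overlapped throughout, and the log2 fold change was 0.03 (SE 0.19). HSPB11 had a log2 fold change of 0.21 (SE 0.29), with 8.78 to 13.3 CPM in knockdown and 6.47 to 12.4 CPM in control samples.

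Of the 4 mitochondrial chaperones, HSPD1 (HSP60) was at 27.9, 68.9 and 77.9 CPM in knockdown and 121, 54.3 and 105 CPM in control samples. KD1 was the lowest, NT2 lay below KD2 and KD3, and the log2 fold change was -0.69 (SE 0.57), or -0.34 without KD1. Its partner HSPE1 (HSP10), which starts next to HSPD1 on chromosome 2 and is read in the other direction, was at 8.84, 20.9 and 11.9 CPM against 21.65, 12.4 and 21.8 CPM, a log2 fold change of -0.45 (SE 0.42), or -0.17 without KD1. The groups overlapped for both genes of this pair, which share 135 exon bases on opposite strands. HSPA9 (mortalin), the mitochondrial HSP70, had a log2 fold change of -0.50 (SE 0.56), or -0.15 without KD1. TRAP1, the mitochondrial HSP90, differed least, at 39.5, 52.0 and 47.0 CPM in knockdown and 54.1, 44.5 and 51.2 CPM in control samples, a log2 fold change of -0.12 (SE 0.14), which was -0.003 without KD1.

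In the ER, HSPA5 was at 32.6, 36.5 and 29.5 CPM in knockdown and 61.0, 33.4 and 45.3 CPM in control samples. KD2 lay above NT2, so the groups overlapped, and here KD1 was not the lowest library. Means were 32.8 ± 3.51 and 46.5 ± 13.8 CPM (SD, n = 3 each), a log2 fold change of -0.51 with SE 0.26, or -0.27 without NT1. HSP90B1 (GRP94), the ER HSP90, was at 121, 288 and 290 CPM against 359, 172 and 268 CPM. Its log2 fold change of -0.20 (SE 0.52) became 0.13 without KD1, 0.07 without NT1 and 0.05 with length-scaled TPM counts. HYOU1 (GRP170), the nucleotide exchange factor of HSPA5, was at 5.58, 11.5 and 9.82 CPM against 15.4, 10.5 and 14.1 CPM. Only KD2 reached into the control range, and the log2 fold change was -0.61 (SE 0.31), or -0.31 without KD1.

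The 6 lectin chaperones and disulphide isomerases, which fold glycoproteins and form disulphide bonds, had a median log2 fold change of -0.68, with values from -0.76 to -0.33. Without KD1 the median was -0.27, and without NT1 it was -0.33. PDIA3 (ERp57), the isomerase that works with the lectin chaperones, was at 12.6, 43.2 and 35.8 CPM in knockdown and 51.8, 46.5 and 47.7 CPM in control samples. The 3 controls lay close together and above all knockdown values, whose spread came mainly from KD1. Means were 30.5 ± 16 and 48.7 ± 2.81 CPM (SD, n = 3 each), and the log2 fold change of -0.69 (SE 0.53) had an adjusted p of 1 by edgeR's exact test. Without KD1 it was -0.29. CALR, the soluble lectin chaperone and calcium store protein, was at 64.65, 221.5 and 214 CPM against 257.5, 173 and 219 CPM. KD1 alone lay below the controls, and the log2 fold change of -0.38 (SE 0.60) became 0.02 without it.

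PDIA6 (P5), an isomerase that binds HSPA5, was at 3.26, 12.2 and 16.1 CPM in knockdown and 27.3, 11.8 and 12.9 CPM in control samples, a log2 fold change of -0.76 (SE 0.70), which was -0.29 without KD1 and -0.28 without NT1. KD1 was the lowest and NT1 the highest, while the other 4 lay between 11.8 and 16.1 CPM. PDIA4 and P4HB, the beta subunit of collagen prolyl hydroxylase, had log2 fold changes of -0.67 and -0.69, and without KD1 of -0.26 and -0.30. CANX, the membrane-bound lectin chaperone, had -0.33, and -0.04 without KD1.

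**Figure D3:**
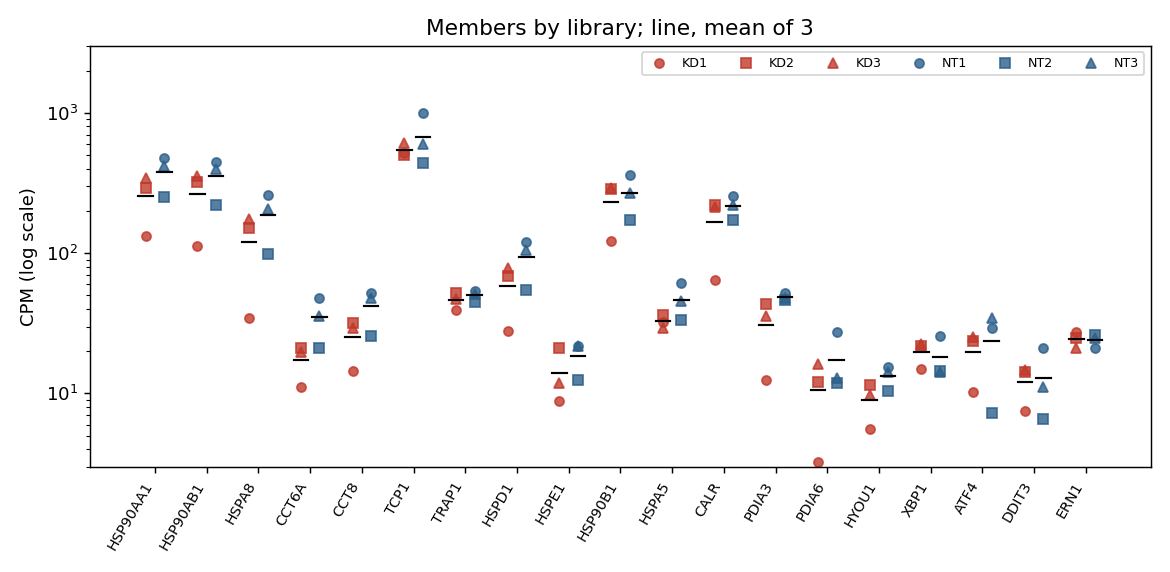
CPM (log axis) of 19 members in each library, with red symbols for knockdown, blue for non-targeting, 1 symbol shape per replicate number and a line at the mean of 3. KD1 (red circle) lies at the bottom for most members and NT1 (blue circle) at the top, and on this scale the groups are apart only for CCT6A and PDIA3.

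Genes of ER-associated degradation, which extracts misfolded proteins for the proteasome, had few counts. SYVN1 (HRD1), the ubiquitin ligase of the pathway, was at 13.5, 25.0 and 22.5 CPM in knockdown and 23.4, 25.5 and 32.9 CPM in control samples. KD2 lay within the control range, and the log2 fold change was -0.45 (SE 0.29), or -0.19 without KD1 and -0.30 without NT3. EDEM1, which trims mannose from misfolded glycoproteins, held 3, 5 and 10 counts in knockdown and 16, 6 and 12 in control samples, a log2 fold change of -0.84 (SE 0.57) at a depth of a few reads, which was -0.37 without KD1, -0.55 without NT1 and -1.55 without KD3. HERPUD1, a small membrane protein induced by ER stress, had a log2 fold change of -0.04, with a range of -0.34 without KD1 to 0.17 without KD3.

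Means of the regulators lay on both sides of no difference. ERN1, the sensor that splices XBP1, was at 27.4, 25.0 and 21.05 CPM in knockdown and 21.08, 26.2 and 24.7 CPM in control samples. The groups overlapped, KD1 was the highest library, and the log2 fold change was 0.04 (SE 0.14). ATF6 was at 2.33, 14.9 and 9.12 CPM against 6.84, 3.93 and 5.88 CPM, with KD1 lowest and KD2 highest. Its log2 fold change of 0.61 (SE 0.68) rested on 5 to 22 counts per library and was -0.04 without KD2. HSF1, the main heat shock factor, had a log2 fold change of -0.27 (SE 0.29), with 13 to 19.7 CPM against 13.75 to 25.1 CPM. It was -0.10 without KD1 and -0.06 without NT1.

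XBP1, the factor that ERN1 splices, was at 14.9, 21.6 and 22.5 CPM in knockdown and 25.6, 14.4 and 14.1 CPM in control samples. Its log2 fold change was 0.10 (SE 0.32), and -0.38 with length-scaled TPM counts. Spliced and unspliced XBP1 were not separated. ATF4, the transcription factor translated when eIF2 is phosphorylated, was at 10.2, 23.6 and 25.3 CPM against 29.05, 7.20 and 34.7 CPM. NT2 was the lowest of the 6, and the log2 fold change was -0.28 (SE 0.77). DDIT3 (CHOP), a target of ATF4, was at 7.44, 14.2 and 14.7 CPM against 21.1, 6.55 and 11.2 CPM, with NT2 the lowest and NT1 the highest, and had a log2 fold change of -0.12 (SE 0.53). TRIB3, a further ATF4 target, held 4 to 20 counts per library and was not tested.

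Set side by side, summed TPM of the cytosolic members was 1278, 1735 and 1904 in KD1, KD2 and KD3 and 2619, 1520 and 2147 in NT1, NT2 and NT3. For the ER members it was 600, 1004 and 1139 against 1321, 924 and 1174, and for the mitochondrial members 274, 297 and 321 against 390, 264.5 and 399. NT1 was the highest library for the cytosolic and ER sums and NT3 for the mitochondrial sum, and NT2 lay below KD2 and KD3 in all 3 compartments. The medians of the log2 fold changes kept their sign when any 1 library was left out, but each such fit still held KD1, NT1 or both. The median log2 CPM of cytosolic members was 5.01 and 4.94 in KD2 and KD3, and 4.76 and 4.99 in NT2 and NT3. For mitochondrial members it was 5.74 and 5.74 against 5.37 and 5.95, and for ER members 5.235 and 4.94 against 5.11 and 5.54. The SD of these library medians, pooled over the groups, was 0.42 for cytosolic, 0.51 for mitochondrial and 0.44 for ER members. Without KD1 the medians of the log2 fold changes were -0.08 for cytosolic, -0.16 for mitochondrial and -0.27 for ER members, and without NT1 -0.13, -0.32 and -0.27. Without NT2 they were -0.52, -0.71 and -0.70, and without KD2 and KD3 in turn the mitochondrial median was -0.75 and -0.56 and the cytosolic -0.38 and -0.46. With length-scaled TPM counts the mitochondrial median was -0.23.

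Shares of the members' own counts were also set out by compartment. Cytosolic genes took 60.3% to 67.1% of member counts in knockdown and 62.7% to 64.8% in control samples. ER genes took 20.5% to 28.3% and 25.1% to 26.3%, with the lowest share in KD1, and mitochondrial genes 5.14% to 5.84% and 5.52% to 6.39%. The 9 regulators took 4.77%, 3.86% and 3.45% in knockdown and 3.17%, 3.14% and 3.11% in control samples, where the groups did not overlap. On the TPM scale the same shares were 5.62%, 5.12% and 3.68% against 4.26%, 4.01% and 3.85%, where they did. The summed level of the regulators overlapped too, at 90.7, 128.3 and 124.2 CPM in knockdown and 152.1, 83.8 and 121.8 CPM in control samples.

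For 15 of the 56 members the quantified transcripts share exon bases with a gene on the opposite strand, and for 8 of these the opposite gene held more counts on average. The libraries came from a stranded kit, but whether kallisto used the strand is not given in the sources used here, so the counts of these members are uncertain. The same unknown setting applies to the 41 members without such overlap, and its effect on their counts was not tested. Transcripts with such shared bases held 100% of the counts of PDIA6 and DDIT3 and 96.9% of those of TCP1. They held 95.8% for SYVN1, 94.5% for HSPA14, 84.6% for PDIA3, 60.7% for DNAJB11, 57.1% for TRAP1 and 56.8% for HSPD1. The share was 48.9% for HSF1, 22.9% for DNAJB1, 13.7% for HSP90B1, 6.68% for HSP90AA1, 2.39% for AHSA1 and 0% for HSPE1. PDIA6 shares 1033 bases, 25.2% of its exon bases, with ATP6V1C2, a proton pump subunit gene with 4452 mean counts against 22.7 for PDIA6. TRAP1 shares 1477 bases (28.5%) with the nuclease gene DNASE1, at 765.5 against 79.9 mean counts. DDIT3 shares 355 bases (27.2%) with MARS1, the methionyl-tRNA synthetase, at 110 against 20.7 mean counts. PDIA3 shares 176 bases with the non-coding CATSPER2P1, at 262 against 64.2 mean counts, and 622 bases with ELL3. The opposite genes ATP6V1C2, DNASE1, MARS1 and CATSPER2P1 had log2 fold changes of -0.04, 0.14, -0.24 and 0.26, each with an adjusted p of 1 by edgeR's exact test.

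**Figure D4:**
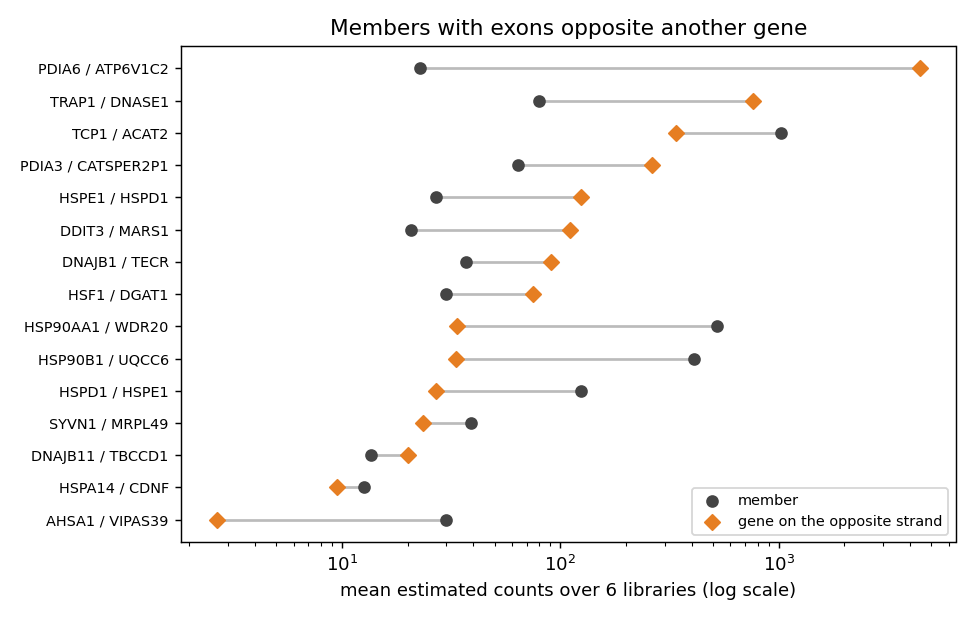
Mean estimated counts over the 6 libraries (log axis) of each member with exons opposite another gene (grey circle) and of the opposite gene with the most counts (orange diamond). In 8 of the 15 pairs the opposite gene lies to the right, with the widest gap for PDIA6 (22.7) and ATP6V1C2 (4452).

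The transcript forms behind the sums also varied. Protein-coding transcripts took between 70.8% and 76.6% of the members' counts. Of the 55 members with any count, 43 had a protein-coding leading transcript, 7 a retained-intron form and 5 a form marked for nonsense-mediated decay. The leading form of HSP90AA1 was of the last kind and took 71% of its counts, while retained-intron forms led for CALR (53.5%), CCT3 (62.5%), HSPB1 (71.1%), SYVN1 (89.2%) and XBP1 (49.1%). HSPA4, with 3 quantified transcripts, and BAG3, with 2, had 100% of their counts on 1 coding transcript. HSPA5 and HSPA1B had only 1 quantified transcript each, so their 100% was fixed in advance.

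A wider list of 119 genes of the same pathways (further HSP90 cochaperones, DNAJ and BAG genes, prefoldin, mitochondrial and ER folding enzymes, stress targets and degradation factors) had 92 tested genes. None was called in either direction by edgeR's exact test, and 2 had an unadjusted p below 0.05, against 2.92% of all tested genes. The mean was lower in knockdown for 57 of the 92, against 49.4% of all tested genes. Their median log2 fold change was -0.09, against 0.004 for all tested genes. The 2 with an unadjusted p below 0.05 were named after their values were seen. They were VCP, the ATPase that pulls proteins from the ER membrane, and DNAJC8, a splicing-associated DNAJ protein. VCP was at 13, 37.1 and 41.4 CPM in knockdown and 88.3, 37.3 and 68.8 CPM in control samples, a log2 fold change of -1.10 (SE 0.62). DNAJC8 was at 5.12, 16.2 and 27.4 CPM against 41, 21.6 and 33.5 CPM, a log2 fold change of -1.01 (SE 0.69). KD1 was the lowest library and NT1 the highest for both genes, and the groups overlapped. Groups without overlap were seen for 7 genes lower and 4 higher of the 92, beside 3.56% and 4.42% of all tested genes.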

How the data were processed

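RNA from 6 SKOV3 samples was sequenced after ribosomal RNA depletion with a stranded kit. The authors quantified transcripts with kallisto 0.43.0 (build GRCh38, per the labels) and deposited an estimated count, not normalized, and a TPM (length-normalized abundance) for each of 173259 transcripts; the strand option is not given in the sources used here. Here 155518 transcripts found in GENCODE release 44 were summed per gene and rounded, and 17741 were left out. No 2 libraries looked like repeats of one. As in the study, gene counts were compared with edgeR's exact test at a threshold of 2-fold and an adjusted p of 0.05. The gene sums over GENCODE, filterByExpr (minimum count 10), TMM, and Benjamini-Hochberg adjustment over all tested genes were set here (edgeR 4.0.16, R 4.3.3). CPM are TMM-scaled, and SE come from log2 CPM (prior count 2). The members and lists were chosen with earlier results of these data known. Named members were those with groups apart, the highest and most different of each role, and usual stress readouts. Alternatives were the quasi-likelihood test with and without a replicate block, DESeq2 1.42.0, RLE, other filters, length-scaled TPM counts, protein-coding genes, summed HSPA1A and HSPA1B, no minimum fold, and each sample left out. The fits were tested on simulated data with changes larger than that of any member, which does not show whether changes of the members' size would be found. Floors of 3 counts cover counting error only.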

Additional observations from a re-analysis of the deposited data

How the results depend on the processing

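No member was called in either direction under any alternative, and the medians of the cytosolic, mitochondrial and ER members kept their sign. Each fit with 1 sample left out still held KD1, NT1 or both. Leaving out each sample in turn, the cytosolic median ran from -0.52 to -0.08, the mitochondrial from -0.75 to -0.16 and the ER median from -0.70 to -0.27. Among the alternative values for single named members, 385 kept their direction and 19 turned sign. With length-scaled TPM counts, 3 log2 fold changes turned sign, to 0.051 for HSP90B1, -0.10 for HSPB1 and -0.38 for XBP1. Leaving out a sample turned 19 of the 49 tested members, 9 of the named members and 10 others. The ranges of the 9 were -0.42 to 0.13 for HSP90B1, -0.15 to 0.14 for HSPB1, -0.54 to 0.064 for TCP1, -0.65 to 0.019 for CALR, -0.43 to 0.41 for DDIT3, -0.71 to 0.083 for ATF4, -0.048 to 0.14 for ERN1, -0.040 to 1.11 for ATF6 and -0.062 to 0.44 for XBP1. The 10 others were HSPA14, DNAJA2, DNAJB11, DNAJC3, CCT3, CCT5, BAG3, STIP1, AHSA1 and HERPUD1, among them HSPA14 (-0.58 to 0.27), DNAJB11 (-0.35 to 0.38) and BAG3 (-0.25 to 0.39). The cause was not tested. The number of genes called over the whole table was 1 lower and 0 higher, 4 and 2 with length-scaled TPM counts, and 2 and 0 without a filter or with one of 1 CPM in 3 samples. The quasi-likelihood test and DESeq2 called 0 genes, and leaving out a sample gave 0 to 3 lower and 0 to 1 higher. Samples with the same replicate number did not deviate together (correlations of -0.40, -0.34 and 0.23), so the numbers were not taken as a pairing. When the quasi-likelihood test used the replicate block, 0 members were called, and the medians were -0.30, -0.51 and -0.52. Leaving out 1 sample gave smallest adjusted p between 0.1352 (without NT2) and 1 among the members by edgeR's exact test. Members with few counts, such as EDEM1 (3 to 16 per library) and ATF6 (5 to 22), carry a wide counting error.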
